A study of Rattus norvegicus with 9 samples.

Results

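The CXC and CX3C chemokine ligand genes were described here in cultured rat fibroblasts. They were the rows of the deposited gene tables whose symbol was Cxcl1, Cxcl2, Cxcl3, Cxcl6, Cxcl10, Cxcl12, Cxcl13, Cxcl14, Cxcl16 or Cx3cl1, which gave 10 genes of the 32883 in each table. RNA sequencing was done on 9 samples of fibroblasts (Fb) that differed in the tissue they were grown from. Fb-Epn came from the epineurium, the connective tissue sheath of the sciatic nerve, Fb-Par from the nerve parenchyma inside that sheath, and Fb-Skn from abdominal skin. Each type had 3 samples, and no agent or gene change was applied to any of them. The question put to the data was how fibroblasts of nerve and skin differ in the genes they express.

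All donors were wild-type (WT) Lewis rats, male and 10 weeks old. The nerves of 2 rats gave both nerve types, and the skin came from 1 other rat, so tissue, rat and body site cannot be told apart in a comparison with Fb-Skn. With so few donors, replicates cannot each stand for a different animal, and p-values measure only the spread between these samples, which may be technical. The cells were digested from the tissue, plated and passaged a single time before RNA was taken. Total counts per library ran from 10084584 to 12310506. Between libraries of a type the counts differed by more than counting noise, with a chi-square per gene of 3.18 to 5.45, so they were not copies of the same library, which does not make them separate animals.

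Chemokines are small secreted proteins that steer migrating cells by binding G protein-coupled receptors on the target cell. In CXC ligands a single residue separates the leading pair of cysteines, and some of them draw neutrophils, others lymphocytes, while Cxcl12 acts on many cell types during development and repair. Cxcl16 and Cx3cl1 are unusual in being made as membrane-anchored proteins that proteases can release, and in injured nerve, chemokines recruit the leukocytes that clear debris.

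The ligand genes were most abundant in Fb-Epn, and most of that level was Cxcl12. Levels are given as TPM, a count divided by gene length and scaled to the same total in each library, so they can be compared between genes. The summed level of the 10 genes was 419, 422 and 432 TPM in the Fb-Epn libraries. It was 76.9, 74.1 and 81.0 TPM in Fb-Par and 30.7, 29.1 and 32.7 TPM in Fb-Skn. The types did not overlap in this sum, and Cxcl12 made up 72.6% to 74.0% of it in Fb-Epn, 22.4% to 25.1% in Fb-Par and 31.5% to 38.3% in Fb-Skn. In Fb-Epn the order of mean levels was Cxcl12, Cxcl14, Cxcl16, Cxcl1, Cxcl13, Cxcl6, Cxcl10, Cxcl3, Cx3cl1 and Cxcl2. In Fb-Par the order began with Cxcl16, Cxcl12, Cxcl1, Cx3cl1 and Cxcl14, and in Fb-Skn with Cxcl1, Cxcl12, Cxcl16, Cx3cl1 and Cxcl13. Several neighbours in these orders overlapped between libraries, among them Cxcl16 and Cxcl1 in Fb-Epn, Cx3cl1 and Cxcl14 in Fb-Par, and Cxcl1 and Cxcl12 in Fb-Skn, so the orders are of means only. In RNA from whole cultures, fewer cells of a type and less RNA per cell cannot be told apart.

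**Figure D1:**
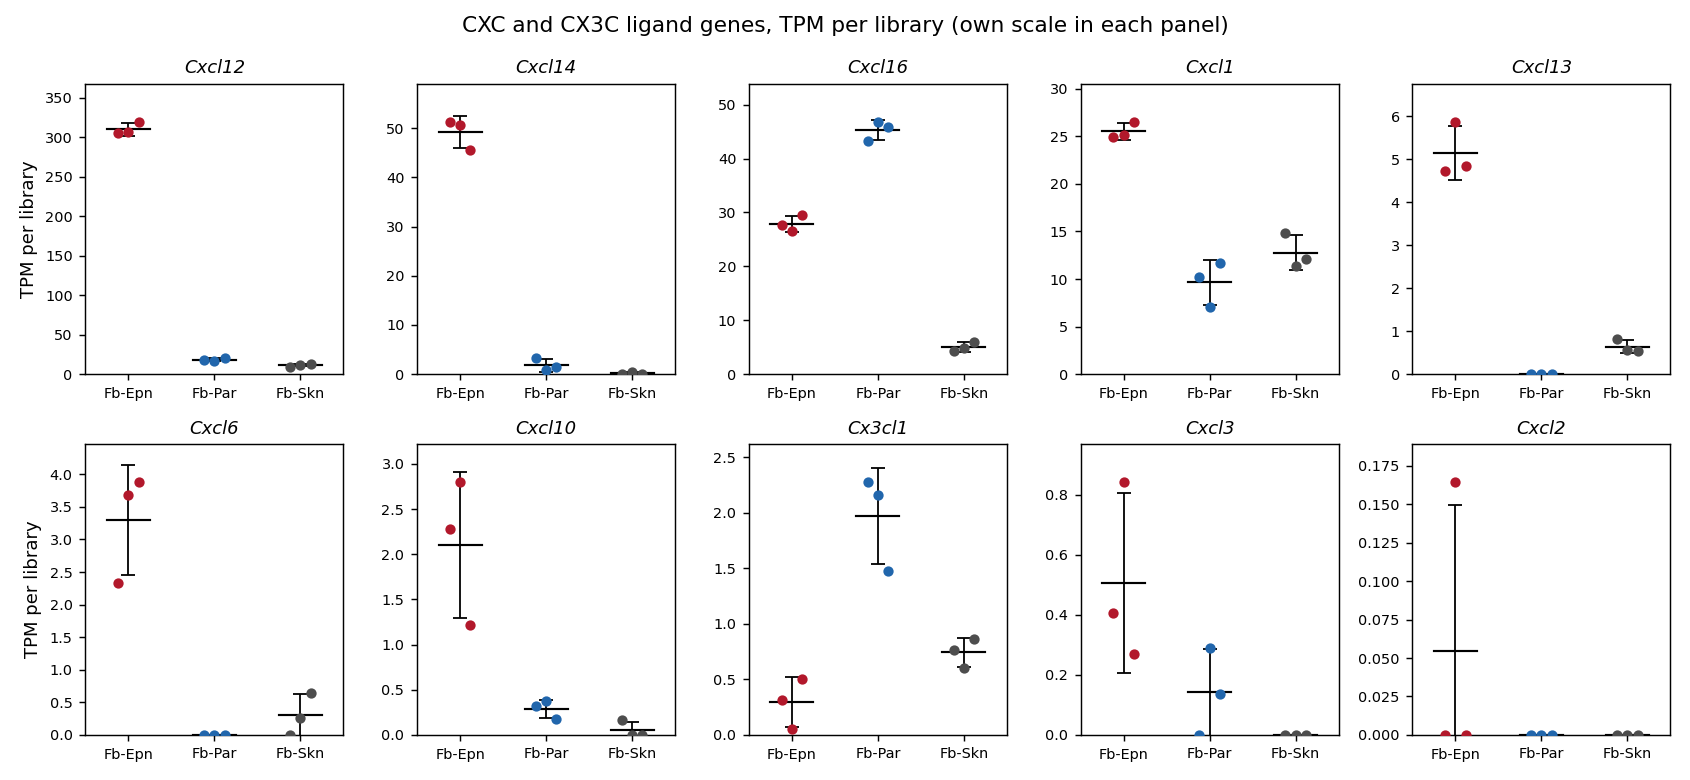
TPM of each ligand gene (y axis, own scale starting at 0 in each panel) in the 3 libraries of each type (x axis); points are libraries, long lines are means and error bars are SD (n = 3). Cxcl12, Cxcl14, Cxcl1, Cxcl13, Cxcl6 and Cxcl10 sit highest in every Fb-Epn library, and Cxcl16 and Cx3cl1 in every Fb-Par library.

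Differences were tested with edgeR's quasi-likelihood test on the counts, with p-values adjusted by the Benjamini-Hochberg method over the 13273 genes that passed the expression filter. A gene is called here at an adjusted p under 0.01, and is a differentially expressed (DE) gene if its log2 fold change is also above 2 or below -2. Of the 10 ligand genes, 7 passed the filter, and Cxcl2, Cxcl3 and Cxcl10 did not and were not tested. Cxcl6, Cxcl13 and Cxcl14 passed only through their Fb-Epn libraries and Cx3cl1 only through its Fb-Par libraries. The filter thus picked these genes for their level in the type named. The counts of called members are descriptions, and so are the adjusted p-values of these genes, here and below. In Fb-Epn against Fb-Skn, 23.0% of all tested genes were called higher in Fb-Epn and 20.9% higher in Fb-Skn, and 6.22% and 2.22% were DE genes in those directions. Of the ligand genes, Cxcl1, Cxcl6, Cxcl12, Cxcl13, Cxcl14 and Cxcl16 were called, all 6 higher in Fb-Epn, and 5 of them were DE genes. In Fb-Epn against Fb-Par, 20.2% of all tested genes were called higher in Fb-Epn and 18.6% higher in Fb-Par, with 4.09% and 2.39% DE genes. There 5 ligand genes were called higher in Fb-Epn, 4 of them DE genes, and Cxcl16 and Cx3cl1 were called higher in Fb-Par, with Cx3cl1 a DE gene. In Fb-Par against Fb-Skn, 23.2% of all tested genes were called higher in Fb-Par and 22.4% higher in Fb-Skn, with 5.86% and 2.67% DE genes. There Cxcl12, Cxcl14 and Cxcl16 were called higher in Fb-Par, 2 of them DE genes, and Cxcl13 was called higher in Fb-Skn. Its fitted value met the DE rule, but with counts at or near the floor in both types its fold is not known. The 3 comparisons share libraries pairwise and are not independent.

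Cxcl12 is the ligand of Cxcr4 and of the scavenging receptor Ackr3, and it guides stem cells, leukocytes, Schwann cells and growing axons. Its level was 305, 306 and 320 TPM in Fb-Epn, 17.5, 16.6 and 20.4 TPM in Fb-Par, and 9.64, 11.1 and 12.5 TPM in Fb-Skn. Every Fb-Epn library stood far above the other 6, and every Fb-Par library stood above every Fb-Skn library by a small margin. By mean TPM Cxcl12 (ENSRNOG00000013589) was at rank 479 of 32883 genes in Fb-Epn, at 6844 for Fb-Par and at 8093 for Fb-Skn. The log2 fold change was 4.67 (SE 0.0745, adjusted p = 1e-15) for Fb-Epn against Fb-Skn and 4.11 (SE 0.0703, adjusted p = 2.1e-15) for Fb-Epn against Fb-Par. For Fb-Par against Fb-Skn it was 0.56 (SE 0.083, adjusted p = 4.2e-05), which was called but was not a DE gene.

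Cxcl14 is a ligand made by epithelium and stroma whose receptor is not settled. Its counts were 416, 464 and 373 in Fb-Epn, 29, 6 and 11 in Fb-Par and 1, 3 and 0 in Fb-Skn, or 51.4, 50.7 and 45.5 TPM, then 3.28, 0.785 and 1.37 TPM, then 0.114, 0.391 and 0 TPM. The types did not overlap, and within Fb-Par library 1 was well above the other 2 libraries. Relative to Fb-Par, Cxcl14 was higher in Fb-Epn by a log2 fold change of 4.72 (SE 0.282, adjusted p = 3.1e-09), or 5.49 without Fb-Par replicate 1. Relative to Fb-Skn the ratio of pooled counts scaled by library size was 270.0 in Fb-Epn, with a 95% counting interval of 105 to 993, and 10.2 in Fb-Par, with an interval of 3.73 to 39.0. Exact counting intervals here and below cover counting error only. The fitted log2 fold changes for these were 7.96 (SE 0.414, adjusted p = 5.9e-10) and 3.23 (SE 0.698, adjusted p = 0.0012), and they rest on 4 counts in Fb-Skn. Without Fb-Skn replicate 2, which held 3 of them, the values were 9.22 and 4.50, and without Fb-Par replicate 1 the value for Fb-Par against Fb-Skn was 2.47. Over the alternatives the values ran from 4.31 to 9.22 for Fb-Epn and from 0.683 to 4.50 for Fb-Par. All were called, and at the smallest value Fb-Par against Fb-Skn was not a DE gene.

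Cxcl13 attracts B cells through Cxcr5. Its counts were 27, 38 and 28 in Fb-Epn, 0 in all 3 Fb-Par libraries, and 5, 3 and 3 in Fb-Skn. At this depth Cxcl13 was not detected in Fb-Par, was near the limit of detection in Fb-Skn, and reached 4.72, 5.88 and 4.84 TPM in Fb-Epn. Against a floor of 3 counts per library Fb-Epn exceeded Fb-Par at least 9.94-fold (adjusted p = 1.6e-06). The pooled count ratio of Fb-Epn to Fb-Skn was 7.29 (95% counting interval 3.89 to 15.1), with a log2 fold change of 2.83 (SE 0.402, adjusted p = 6.9e-05). The test called the difference between Fb-Skn and Fb-Par (adjusted p = 0.0014), but no fold is given because Fb-Par had no counts and the 5, 3 and 3 of Fb-Skn hardly exceed the floor that would stand in for them, and with limma on log2(FPKM + 1) this call was lost (adjusted p = 0.072). Over its alternatives the adjusted p of that difference ran from 6.2e-06 to 0.072.

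Cxcl1, Cxcl2, Cxcl3 and Cxcl6 carry the glutamate-leucine-arginine motif of the ligands that draw neutrophils through Cxcr2. Only Cxcl1 had appreciable levels, at 24.9, 25.1 and 26.6 TPM in Fb-Epn, 10.2, 7.06 and 11.7 TPM in Fb-Par, and 14.9, 11.3 and 12.2 TPM in Fb-Skn. Fb-Epn stood above both other types, which overlapped each other. The log2 fold change of Cxcl1 was 0.85 (SE 0.183, adjusted p = 0.0012) for Fb-Epn against Fb-Skn and 1.41 (SE 0.188, adjusted p = 2e-05) for Fb-Epn against Fb-Par, while Fb-Par against Fb-Skn was not called (-0.56, SE 0.197, adjusted p = 0.027).

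Cxcl6 had 19, 34 and 32 counts in Fb-Epn, 0 in all Fb-Par libraries and 0, 2 and 5 in Fb-Skn. Each Fb-Epn library was above every library of the other types, and Fb-Par and Fb-Skn overlapped at 0. Fb-Epn exceeded Fb-Par at least 9.09-fold for Cxcl6, against 3 counts per library (adjusted p = 4.7e-05). The pooled count ratio of Fb-Epn to Fb-Skn was 10.5 (95% counting interval 4.87 to 26.8), with a log2 fold change of 3.31 (SE 0.62, adjusted p = 0.00062). That value was 2.71 without Fb-Skn replicate 1 and 4.47 without Fb-Skn replicate 3. Fb-Par against Fb-Skn was not called (adjusted p = 0.034), and was called without Fb-Skn replicate 1 (adjusted p = 0.0079) and without the filter (adjusted p = 0.0081), with a range of 0.0079 to 0.26 over the alternatives.

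Cxcl3 had 3, 7 and 2 counts in Fb-Epn, 0, 2 and 1 in Fb-Par and 0 in all Fb-Skn libraries, and Cxcl2 had 1 count in all, in Fb-Epn library 2. Neither was detectable well enough for a comparison; the pooled count ratio of Cxcl3 in Fb-Epn to Fb-Par was 3.89 with a 95% counting interval of 1.05 to 21.5. Cxcl1, Cxcl2 and Cxcl3 are close copies of each other, and how reads that match more than 1 of them were assigned is not given in the sources used here, so the split of counts among them is uncertain.

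Cxcl10 is induced by interferons and attracts T cells through Cxcr3. Its counts were 13, 18 and 7 in Fb-Epn, 2, 2 and 1 in Fb-Par, and 1, 0 and 0 in Fb-Skn. Fb-Epn was above both other types in every library, at 2.28, 2.80 and 1.21 TPM. The pooled count ratio was 7.38 to Fb-Par (95% counting interval 2.90 to 24.0) and 32.8 to Fb-Skn (5.54 to 1330.0), the latter against a single count. Cxcl10 did not pass the filter and an exact permutation test of 3 against 3 libraries cannot go below p = 0.10. With every gene of at least 1 count kept, edgeR gave adjusted p = 6.7e-05 against Fb-Skn and 0.0018 against Fb-Par. Over the alternatives in which Cxcl10 could be tested, the adjusted p ran from 6.7e-05 to 0.0028 and from 0.0018 to 0.013. On rn6, Cxcl10 lies at chr14:17210733-17212930 on the plus strand, inside the span of Art3 on the minus strand (chr14:17143040-17225389), and whether the counting used strand is not given in the sources used here, so reads of these genes may not be separable.

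The membrane-anchored ligands were the members that had more transcript in Fb-Par than Fb-Epn. Cxcl16, which binds Cxcr6 and also serves as a scavenger receptor for oxidised lipid, was at 43.3, 46.9 and 45.8 TPM in Fb-Par, 27.7, 26.6 and 29.4 TPM in Fb-Epn, and 4.31, 4.81 and 5.99 TPM in Fb-Skn. The types were in separate ranges, with Fb-Par highest and Fb-Skn lowest. The log2 fold change of Cxcl16 was 3.02 (SE 0.114, adjusted p = 1.3e-11) for Fb-Par against Fb-Skn and 2.33 (SE 0.117, adjusted p = 4e-10) for Fb-Epn against Fb-Skn. For Fb-Epn against Fb-Par it was -0.69 (SE 0.0921, adjusted p = 2e-05), called but smaller than a DE gene needs. The 5′ end of Cxcl16 on the minus strand of chr10 overlaps Zmynd15 on the plus strand over a short stretch.

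Cx3cl1, also called fractalkine, holds cells that carry Cx3cr1 to the surface that displays it. It had 39, 32 and 23 counts in Fb-Par, 13, 9 and 13 in Fb-Skn and 5, 1 and 8 in Fb-Epn, which were 2.27, 2.16 and 1.47 TPM, then 0.763, 0.605 and 0.867 TPM, then 0.318, 0.0563 and 0.503 TPM. The types did not overlap, with Fb-Par highest and Fb-Epn lowest. Fb-Epn against Fb-Par gave a log2 fold change of -2.74 (SE 0.463, adjusted p = 0.00018), or -3.38 without Fb-Epn replicate 3. Cx3cl1 was called there in all 19 alternatives, with values from -3.38 to -0.788, and at the smallest change it was not a DE gene. Fb-Epn against Fb-Skn (-1.50, SE 0.518, adjusted p = 0.024) and Fb-Par against Fb-Skn (1.24, SE 0.402, adjusted p = 0.017) were not called. The former was called without Fb-Epn replicate 3 (-2.13, adjusted p = 0.0092; range over alternatives 0.0092 to 0.088). The latter was called without Fb-Epn replicate 2 (adjusted p = 0.0063), when only those types were compared (adjusted p = 0.0037), without the filter (adjusted p = 0.0093) and with limma on log2(TPM + 1) (adjusted p = 0.0029) or log2(FPKM + 1) (adjusted p = 0.0013), with a range of 0.0013 to 0.067.

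Adam10 and Adam17, the proteases that release both membrane-anchored ligands, were measured at appreciable levels in each type. Adam10 was at 73.0, 66.8 and 73.9 TPM in Fb-Par, 49.7, 51.8 and 49.9 TPM in Fb-Epn and 36.8, 41.4 and 40.5 TPM in Fb-Skn, the same order as Cxcl16. Of the 8 proteases listed, 6 were tested. In Fb-Epn against Fb-Par, 2 were called higher in Fb-Epn and 3 higher in Fb-Par, beside 20.2% and 18.6% of all tested genes. Against Fb-Skn, 3 were called higher and 2 lower in Fb-Epn, beside 23.0% and 20.9% of all, and also 3 and 2 in Fb-Par, beside 23.2% and 22.4%. Mmp9, a gelatinase that trims several CXC ligands, was the DE gene among them, with mean levels of 7.24 ± 0.663 TPM in Fb-Epn, 0.788 ± 0.242 TPM in Fb-Par and 5.07 ± 1.05 TPM in Fb-Skn (SD, n = 3). Its log2 fold change was 3.19 (adjusted p = 4.3e-08) for Fb-Epn against Fb-Par and -2.82 (adjusted p = 1.8e-07) for Fb-Par against Fb-Skn. The list's median log2 fold changes were 0.19, -0.19 and 0.17 in Fb-Epn against Fb-Skn, Fb-Epn against Fb-Par and Fb-Par against Fb-Skn, beside medians of -0.003, 0 and -0.012 over all tested genes.

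Of 9 receptor genes looked at, the receptors of Cxcl12 were the abundant ones. Ackr3 was at 170.0, 170.1 and 173 TPM in Fb-Epn, 86.4, 97.1 and 91.2 TPM in Fb-Par and 12.6, 13.7 and 14.8 TPM in Fb-Skn. Cxcr4 was at 10.6, 10.9 and 12.9 TPM in Fb-Epn, 8.65, 10.5 and 11.1 TPM in Fb-Par and 1.47, 0.961 and 0.834 TPM in Fb-Skn. Both were far lower in Fb-Skn, and Ackr3 separated all types while Cxcr4 overlapped between Fb-Epn and Fb-Par. Against Fb-Skn the log2 fold changes of Ackr3 were 3.51 in Fb-Epn (adjusted p = 5.9e-15) and 2.59 in Fb-Par (adjusted p = 1.7e-13), and those of Cxcr4 were 3.22 (adjusted p = 2.7e-08) and 3.03 (adjusted p = 5.5e-08). Between Fb-Epn and Fb-Par, Ackr3 was called (0.91, adjusted p = 2e-09) and Cxcr4 was not (0.20, adjusted p = 0.39).

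The receptor of Cx3cl1, Cx3cr1, had 14, 8 and 18 counts in Fb-Par, 0, 1 and 0 in Fb-Epn and 0 in all Fb-Skn libraries. It was thus counted mainly in the type with the highest Cx3cl1 level, at least 3.92-fold above Fb-Skn against 3 counts per library, and its pooled count ratio to Fb-Epn was 41.2 (95% counting interval 6.98 to 1670.0). Cx3cr1 did not pass the filter and was not tested. Cxcr2 and Cxcr6 had 0 counts in all 9 libraries, Cxcr1 had 1, 0 and 1 counts in Fb-Epn and 0 elsewhere, and no library had more than 4 counts of Cxcr3 or more than 5 of Cxcr5. The receptor Gpr182, which takes up several chemokines, was near 1 TPM in all types, with means of 1.16, 1.27 and 0.945 TPM, and was not called in any comparison. Over the 3 receptors tested, median log2 fold changes were 3.22, 0.20 and 2.59 in Fb-Epn against Fb-Skn, Fb-Epn against Fb-Par and Fb-Par against Fb-Skn. Over all tested genes they were -0.003, 0 and -0.012. With so few receptors, each median is the value of a single gene, Cxcr4, Cxcr4 and Ackr3 in that order.

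Of 6 other CXC and XC ligand genes looked at, Pf4, the platelet factor also made by macrophages, was at 183, 171 and 189 TPM in Fb-Epn, 21.2, 27.8 and 16.4 TPM in Fb-Par and 26.0, 13.9 and 11.8 TPM in Fb-Skn. It stood above all ligand genes but Cxcl12 in Fb-Epn, and the other types overlapped. Its log2 fold change was 3.22 (SE 0.229, adjusted p = 2e-08) for Fb-Epn against Fb-Skn and 3.06 (SE 0.222, adjusted p = 2.7e-08) for Fb-Epn against Fb-Par. Cxcl11 and Ppbp had 0 counts in all libraries. Cxcl9 had 4 counts, all in Fb-Epn library 3, Xcl1 had 1 and Cxcl17 had at most 3 in any library.

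By position, Cxcl2, Cxcl1, Cxcl3, Pf4, Ppbp and Cxcl6 lie together on the minus strand of chr14:18731378-18862407 (rn6), a stretch of 131030 bases with 8 annotated genes. Within it, levels differed widely between neighbours in Fb-Epn, from 181 TPM for Pf4 and 25.5 TPM for Cxcl1 to 3.30 TPM for Cxcl6, 0.506 TPM for Cxcl3 and 0 for Ppbp. The ligand genes Cxcl10 and Cxcl13 (chr14:15253125-15258207) are on the same chromosome, while Cxcl12 is at chr4:149261044-149273891, Cxcl14 at chr17:9109731-9117750, Cxcl16 at chr10:57060007-57064600 and Cx3cl1 at chr19:10644244-10653800. Of the 67 genes within 500 kb of the span of the chromosome 14 members, 25 genes other than members were tested. In Fb-Epn against Fb-Skn, 11 of these were called higher in Fb-Epn and 6 higher in Fb-Skn, where 23.0% and 20.9% of all tested genes were. For Fb-Epn against Fb-Par the numbers were 4 and 8, with 20.2% and 18.6% over all genes, and for Fb-Par against Fb-Skn 12 and 4, with 23.2% and 22.4%. Art3, Naaa, Btc, Ereg and Pf4 were DE genes in at least 1 comparison, and Ereg passed the filter only through Fb-Epn. Ereg, which encodes epiregulin, had 28, 29 and 31 counts in Fb-Epn, 0 in all Fb-Par libraries and 9, 5 and 6 in Fb-Skn, the same order of types as Cxcl13. Btc, which encodes the related growth factor betacellulin, had its highest mean level in Fb-Par (14.5 TPM), with 5.41 TPM in Fb-Epn and 0.0248 TPM in Fb-Skn.

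**Figure D2:**
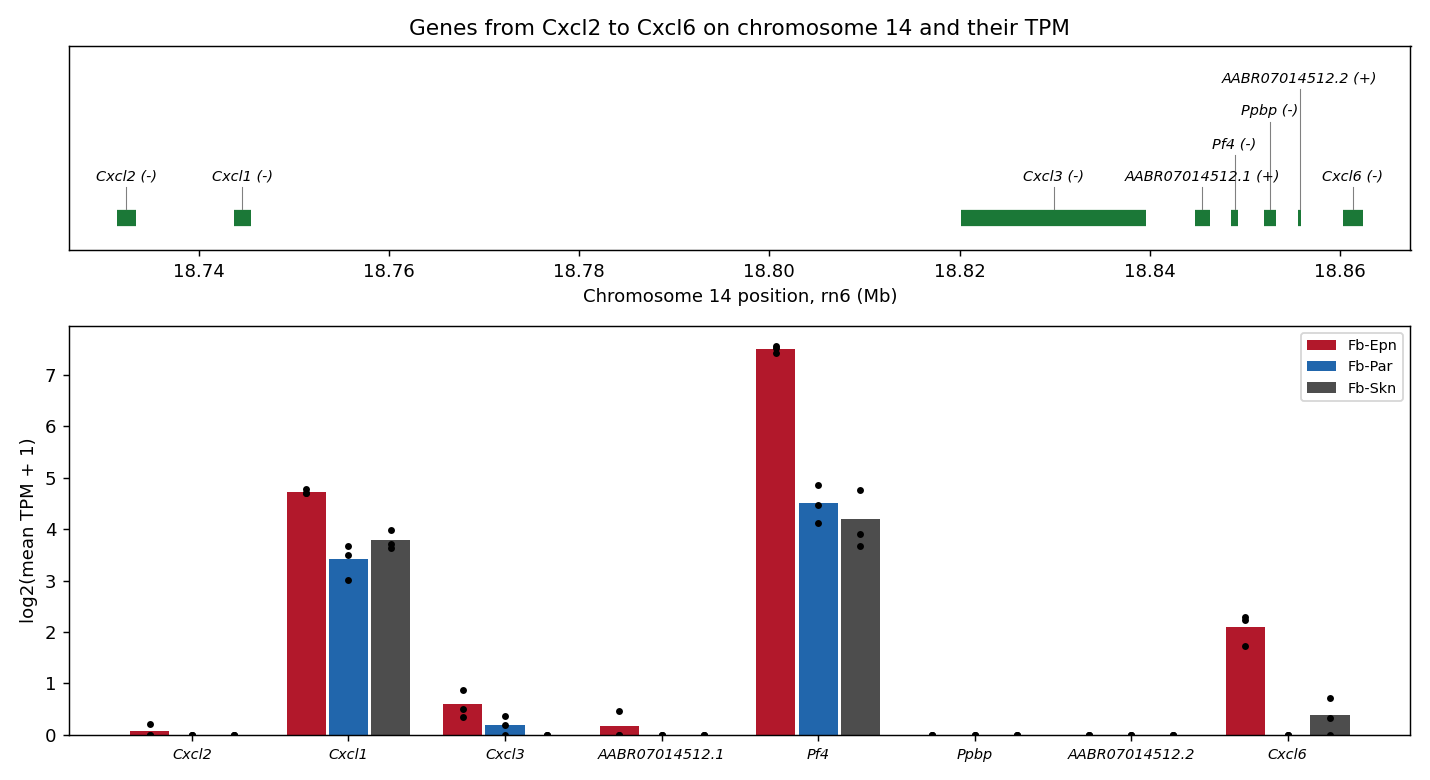
Upper panel: the 8 genes annotated from Cxcl2 to Cxcl6 by position on chromosome 14 (x axis, rn6, Mb; strand in brackets). Lower panel: their levels as log2(TPM + 1), where bars are from the mean of 3 libraries per type and points are libraries; Pf4, Cxcl1 and Cxcl6 are highest in Fb-Epn, and Ppbp has no counts.

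Promoter sequences are shown to set neighbours with like elements but unlike levels beside the abundant Cxcl12 and Cxcl14. They are from RefSeq (GRCr8), which held 9 of the 10 ligand genes under their symbols, and Cxcl3 was not among them. Windows from 250 bases before to 50 after the start were searched on both strands. The motifs were an NF-kappaB-like one (GGGA, 4 of any base, CC), AP-1 (TGANTCA) and an ISRE-like one (GAAA, 2 of any base, GAAA). The others were a TATA-like one (TATAAA) and a hypoxia element (ACGTG). The NF-kappaB-like motif was in 5 of the 9 windows (Cxcl1, Cxcl2, Cxcl6, Cxcl10 and Cxcl13) and in 19.3% of all 33469 promoters. Its match nearest the start ended at -74 in Cxcl1, -64 in Cxcl2 and -78 in Cxcl6, and Cxcl1 had a further one at -103 to -94. AP-1 was in Cxcl10 and Cxcl14 (7.33% of all), the ISRE-like motif in Cxcl10 (3.92%), TATAAA in Cxcl10, Cxcl13 and Cx3cl1 (14.2%) and ACGTG in Cxcl2 (19.3%). TATAAA lay at -33 to -28 in Cxcl13, at -162 to -157 in Cxcl10 and at -78 to -73 in Cx3cl1. Variants of TATAAA were not searched for. None of the 5 motifs was in the windows of Cxcl12 and Cxcl16. These are matches of letters, and binding was not measured. The stretches printed end 1 base before the start and run 5′ to 3′ on the gene's strand, with motif matches in capitals, which merge where matches overlap. They are chr14:17479322-17479471 for Cxcl1, chr14:17467256-17467405 for Cxcl2 and chr14:17596418-17596567 for Cxcl6, all on the minus strand, and chr14:15988816-15989065 for Cxcl10, chr4:152060631-152060780 for Cxcl12 and chr17:8323000-8323149 for Cxcl14, all on the plus strand.
Cxcl1: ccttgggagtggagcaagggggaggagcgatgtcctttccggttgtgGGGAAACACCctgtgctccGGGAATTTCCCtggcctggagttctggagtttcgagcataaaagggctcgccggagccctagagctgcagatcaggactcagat
Cxcl2: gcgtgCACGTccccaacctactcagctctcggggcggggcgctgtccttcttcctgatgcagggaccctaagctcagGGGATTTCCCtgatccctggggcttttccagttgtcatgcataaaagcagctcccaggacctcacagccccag
Cxcl6: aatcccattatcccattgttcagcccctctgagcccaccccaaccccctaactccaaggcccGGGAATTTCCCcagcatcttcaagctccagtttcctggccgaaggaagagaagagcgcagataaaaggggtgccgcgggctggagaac
Cxcl10: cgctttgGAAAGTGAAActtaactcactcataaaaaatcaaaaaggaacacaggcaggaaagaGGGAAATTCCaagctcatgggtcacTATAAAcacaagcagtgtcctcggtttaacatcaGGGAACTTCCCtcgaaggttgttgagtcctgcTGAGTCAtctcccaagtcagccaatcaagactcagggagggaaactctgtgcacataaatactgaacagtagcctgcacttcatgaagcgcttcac
Cxcl12: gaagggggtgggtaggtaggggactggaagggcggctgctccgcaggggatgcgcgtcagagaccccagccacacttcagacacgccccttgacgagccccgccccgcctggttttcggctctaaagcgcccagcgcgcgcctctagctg
Cxcl14: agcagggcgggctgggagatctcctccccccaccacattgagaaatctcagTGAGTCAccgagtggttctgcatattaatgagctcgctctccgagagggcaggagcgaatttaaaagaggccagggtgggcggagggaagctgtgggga

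Many ligand genes are targets of NF-kappaB in other settings, and 17 components and feedback regulators of that pathway were all tested. In Fb-Epn against Fb-Skn, 4 were called higher and 7 lower in Fb-Epn, beside 23.0% and 20.9% of all tested genes. Against Fb-Par, 9 were called higher and 1 lower in Fb-Epn (20.2% and 18.6% of all), and for Fb-Par against Fb-Skn 2 higher and 9 lower in Fb-Par (23.2% and 22.4% of all). The list's median log2 fold changes were -0.19, 0.39 and -0.79 in that order, with -0.003, 0 and -0.012 over all tested genes. Nfkbiz, a nuclear coactivator of NF-kappaB, was at 57.2, 54.9 and 61.8 TPM in Fb-Epn, 7.79, 9.73 and 7.61 TPM in Fb-Par and 11.1, 10.3 and 11.1 TPM in Fb-Skn. It was clearly highest in Fb-Epn, with a log2 fold change of 2.28 (adjusted p = 1e-11) against Fb-Skn and 2.80 (adjusted p = 1.5e-12) against Fb-Par. Tnfaip3, a feedback inhibitor of the pathway, was highest in Fb-Skn instead, at 7.25 ± 0.791 TPM against 3.33 ± 0.489 TPM in Fb-Epn and 1.37 ± 0.125 TPM in Fb-Par (SD, n = 3), and was a DE gene in Fb-Par against Fb-Skn (-2.54, adjusted p = 9.8e-08).

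Of 16 inflammatory cytokine and receptor genes, 14 were tested. In Fb-Epn against Fb-Skn, 10 were called higher and 2 lower in Fb-Epn, beside 23.0% and 20.9% of all tested genes. Between the nerve types 9 were higher and 1 lower in Fb-Epn (20.2% and 18.6% of all), and between Fb-Par and Fb-Skn 5 were higher and 4 lower in Fb-Par (23.2% and 22.4% of all). The medians of log2 fold change were 0.82, 0.70 and 0.02, with -0.003, 0 and -0.012 over all tested genes. Il1rl1, the receptor of interleukin-33, was at 2227, 2276 and 2277 TPM in Fb-Epn, 284, 289 and 297 TPM in Fb-Par and 111, 116 and 113 TPM in Fb-Skn. Il33 itself was at a mean of 275 ± 5.90 TPM in Fb-Epn, 240 ± 7.22 TPM in Fb-Par and 30.7 ± 3.61 TPM in Fb-Skn (SD, n = 3). Il1rn, the interleukin-1 receptor antagonist, was at 165, 166 and 167 TPM in Fb-Epn, 10.8, 10.5 and 9.92 TPM in Fb-Par and below 2 TPM in Fb-Skn, in separate ranges. Tnfrsf1b, a receptor of tumour necrosis factor, was highest in Fb-Epn (18.0 ± 0.493 TPM, SD, n = 3), with a log2 fold change of 2.12 against Fb-Skn (adjusted p = 1.7e-09) and 2.85 against Fb-Par (adjusted p = 1.1e-10). Il1a, an alarmin that induces Cxcl1 in many cells, went the other way, with 57, 45 and 42 counts in Fb-Skn, 3, 0 and 2 in Fb-Epn and 0 in all Fb-Par libraries. It passed the filter only through Fb-Skn, so its calls, which are among the lower ones counted against Fb-Skn for both nerve types, are descriptions.

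Of 20 interferon response genes, 16 were tested, and Ifnb1 and Ifng had 0 counts in all libraries. In Fb-Epn against Fb-Skn, 7 were called higher and 2 lower in Fb-Epn, beside 23.0% and 20.9% of all tested genes. Between the nerve types 4 were higher and 2 lower in Fb-Epn, near the shares of 20.2% and 18.6% over all genes, and 6 were higher and 3 lower in Fb-Par than Fb-Skn (23.2% and 22.4% of all). Median log2 fold changes were 0.20, 0.09 and 0.25, with -0.003, 0 and -0.012 over all tested genes. The DE genes Mx1, Mx2, Oas1a and Ifit3 were all low, and all but Ifit3 passed the filter only through Fb-Epn, so their calls are descriptions. Mx1, an antiviral GTPase, had 43, 29 and 24 counts in Fb-Epn, 2, 1 and 1 in Fb-Par and 0 in Fb-Skn. Like Cxcl10 it was highest in Fb-Epn, which exceeded Fb-Skn at least 9.24-fold against 3 counts per library. Irf7 and Gbp2 went the other way between the nerve types and were called higher in Fb-Par. Their log2 fold changes for Fb-Epn against Fb-Par were -1.16 (adjusted p = 0.0025) and -0.81 (adjusted p = 1.3e-07). Ifit3 was a DE gene in both nerve types against Fb-Skn (adjusted p = 0.0013 for Fb-Epn and 0.00042 for Fb-Par). Its mean was highest in Fb-Par, at 2.42 TPM against 1.88 TPM in Fb-Epn, and the nerve types overlapped.

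Markers of fibroblasts and of other cell types were looked at in the same libraries. Fibroblast markers were strong in every library: 7 of 8 listed genes were looked at and all 7 were detected in all 9 libraries, led by Col1a1. Their summed level was 31152, 31011 and 31230 TPM in Fb-Epn, 25919, 26885 and 25849 TPM in Fb-Par and 29616, 30719 and 30443 TPM in Fb-Skn. The genes of this list differed in both directions, and Thy1 was a DE gene, lower in Fb-Epn than Fb-Skn (710.2 against 3095 TPM, log2 fold change -2.26, adjusted p = 1.5e-16). Of 13 macrophage and leukocyte markers 11 were looked at. Their sum was 1299, 1267 and 1339 TPM in Fb-Epn, 284, 272 and 279 TPM in Fb-Par and 84.4, 90.3 and 90.8 TPM in Fb-Skn. The most abundant was Lyz2, at means of 957 TPM in Fb-Epn, 178 TPM in Fb-Par and 60.6 TPM in Fb-Skn. Cd3e, the marker of T cells, was at 0 in every library, and 10 of the 11 genes were tested, and Fb-Epn was called higher for all 10 against either other type, beside 23.0% of all tested genes against Fb-Skn and 20.2% against Fb-Par, with Cd163 in the test only through Fb-Epn. The macrophage and leukocyte sum thus had the order of types of Cxcl12 and Cxcl14 and was highest where Cxcl1, Cxcl6, Cxcl10, Cxcl13 and Pf4 were, and its part in those results was not tested.

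Of 6 Schwann cell markers 5 were looked at. Their summed level was highest in Fb-Par at 236, 241 and 239 TPM, with 179.8, 193 and 188 TPM in Fb-Epn and 12.6, 13.2 and 10.5 TPM in Fb-Skn. This is the order of Cxcl16, and the part of these markers in its levels was not tested. S100b was the most abundant, at means of 129.6 TPM in Fb-Epn, 119 TPM in Fb-Par and 7.96 TPM in Fb-Skn, and Sox10 and Erbb3 were at 0 in Fb-Skn. The 6 pericyte and smooth muscle markers summed to 619, 637 and 624 TPM in Fb-Par, 383, 398 and 392 TPM in Fb-Skn and 171, 168 and 164 TPM in Fb-Epn, led by Pdgfrb. The order of types of this sum, which Pdgfrb, Myh11 and Cspg4 carried, was that of the mean levels of Cx3cl1, while Rgs5, Des and Abcc9 had their lowest means in Fb-Skn. The part of these markers in the levels of Cx3cl1 was not tested. Of 7 endothelial markers 6 were looked at, and they summed to 15.1, 15.8 and 15.9 TPM in Fb-Epn, 11.03, 11.8 and 10.4 TPM in Fb-Par and 1.31, 1.604 and 1.00 TPM in Fb-Skn. Tek, the most abundant, was not called between the nerve types and had its highest mean in Fb-Par, at 10.2 TPM against 8.37 TPM in Fb-Epn. The other endothelial genes, Cdh5, Tie1, Vwf, Kdr and Cldn5, had their highest means in Fb-Epn. Against Fb-Par, Tie1 was a DE gene, higher in Fb-Epn (log2 fold change 2.63, adjusted p = 9e-07), as was Cdh5 (4.11, adjusted p = 5.1e-06). Cdh5 and Vwf passed the filter only through Fb-Epn, so their calls are descriptions. The endothelial sum had the order of types of Cxcl12 and Cxcl14, and its part in their levels was not tested. Neutrophil markers were at or near 0: Mpo and Elane had no counts, and the sum of the 5 genes stayed under 1 TPM in every library.

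**Figure D3:**
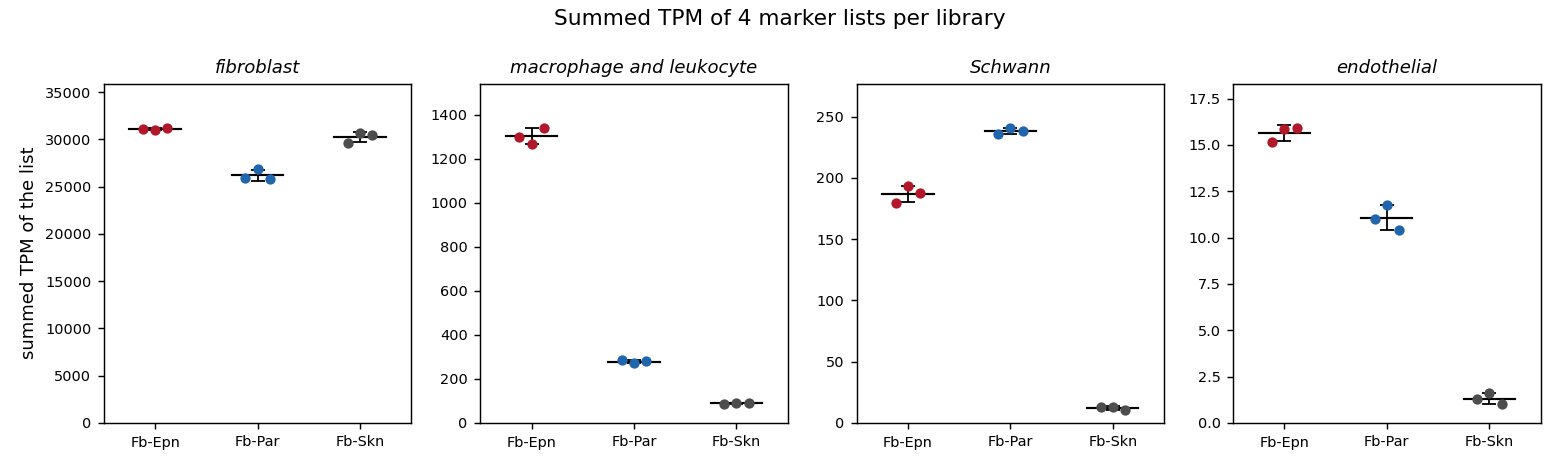
Summed TPM of 4 marker lists (y axes, each starting at 0) in the libraries of each type (x axes); points are libraries, long lines are means and error bars SD (n = 3). The fibroblast sum lies between 25849 and 31230 TPM, the macrophage and leukocyte sum is highest in Fb-Epn, and the Schwann cell sum is highest in Fb-Par.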

How the data were processed

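RNA of 9 fibroblast samples was sequenced from poly(A) libraries made with a directional kit. The submitters' processing notes name FastQC 0.11.7, Trimmomatic 0.38, HISAT2 2.1.0, featureCounts 1.6.3 and the build rn6; the annotation release and the strand setting of counting are not given in the sources used here. The authors deposited raw counts per gene. The deposited TPM values equal the counts scaled by 1 length per gene (largest relative deviation 6.3e-07). The deposited FPKM values come from another estimate, the program for which is not given in the sources used here: 1743 values with 0 counts had FPKM above 0, and they served only as alternatives.

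Counts were tested with edgeR 4.0.16 (R 4.3.3) by the quasi-likelihood test after filterByExpr and TMM scaling (factors 0.955 to 1.03), with all 9 libraries in 1 model and 3 contrasts, followed by Benjamini-Hochberg adjustment within each. A type's lower bound was set against 3 counts per library. Counting intervals are exact (Clopper-Pearson) at 95%. The alternatives were other scalings, filters and thresholds, DESeq2 1.42.0, limma 3.58.1, a block on replicate number and each library left out. Cxcl5, Ackr1, Col1a2, Itgam, Cd79a, Pecam1 and Foxd3 were listed but not analysed here, and 1 more planned Schwann cell marker is not reported here. The members and lists were chosen with earlier results of these data known. All members and receptors are named, and of the lists of signaling genes, cytokines, interferon response and proteases the DE genes and a few others. Of the cell type markers, the most abundant gene and those that mark a limit are named, not every DE gene.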

Additional observations from a re-analysis of the deposited data

How the results depend on the processing

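Of 404 log2 fold changes of tested ligand genes recomputed under the alternatives, 395 kept their direction and their side of the adjusted p of 0.01, 8 kept their direction and were called where the reported value was not, 1 kept its direction and was no longer called, and none reversed. The number of ligand genes called was 6, 7 and 4 in Fb-Epn against Fb-Skn, Fb-Epn against Fb-Par and Fb-Par against Fb-Skn, and that of DE genes was 5, 5 and 3, the last with Cxcl13, whose fold is not known. With at least 10 counts in every library, 3 ligand genes remained in the test, so 3, 3 and 2 were called and 2, 1 and 1 were DE genes. With limma on log2(TPM + 1), 3, 4 and 1 were DE genes in the same order of comparisons, and on log2(FPKM + 1), 3, 2 and 1 were. On log2(TPM + 0.1) the numbers were 5, 5 and 3, and the cause of the lower numbers with FPKM was not tested. Over all tested genes, DE genes numbered 1120, 860 and 1133 in the reported fit. They numbered 580, 421 and 576 on log2(TPM + 1) and 395, 281 and 390 on log2(FPKM + 1). With only the types compared, 4 ligand genes were tested in Fb-Par against Fb-Skn and 1 was a DE gene. In the reported fit of all 9 libraries, 7 were called in Fb-Par against Fb-Skn at an adjusted p under 0.05. Without each library in turn, 6 to 8, 7 to 8 and 4 to 5 were called and 5 to 7, 5 to 6 and 3 to 4 were DE genes. Cxcl10 passed the filter in some of these fits, so the numbers are not all over the same genes. With library sizes alone, 63.7% of all calls in Fb-Epn against Fb-Skn and 61.9% in Fb-Par against Fb-Skn were higher in the nerve type, beside 52.3% and 50.8% with TMM. With limma on log2(TPM + 1) these were 69.0% and 66.9%, and the median of all genes was 0.126 and 0.123 instead of -0.003 and -0.012. On log2(FPKM + 1) they were 63.2% and 61.0%. Replicate numbers are shared between types, but deviations from the type means correlated between same-numbered libraries at only -0.08 to 0.02. No pairing by number was thus seen, which cannot show whether same-numbered nerve samples came from the same rat. With the replicate block the counts called were 6, 7 and 4 and the DE genes 5, 5 and 3. Rescaled FPKM moved 4 of 30 mean levels by more than 1 SD, among them Cxcl12 in Fb-Epn, from 311 to 338. Depth limits Cxcl2, Cxcl3 and Cxcl10, and the values of Cxcl6, Cxcl13 and Cxcl14 in their low types.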

Other observations

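The 4 perineurial markers summed to 157, 156 and 163 TPM in Fb-Epn, with 41.4, 43.4 and 46.7 TPM in Fb-Par and 75.3, 84.1 and 81.1 TPM in Fb-Skn, most of it the glucose transporter gene Slc2a1, which is not particular to perineurial cells. Itgb4 also had its highest mean in Fb-Epn, at 13.7 TPM. Cldn1 and Gjb1, near the limit of detection and not tested, had their highest means in Fb-Par, at 0.324 and 0.0774 TPM. The 5 keratinocyte markers stayed under 5 TPM in every library, led by Krt10, and Krt1 was at 0. Krt14, which was not tested, had 17, 9 and 10 counts in Fb-Skn, 0, 1 and 0 in Fb-Par and 0 in all Fb-Epn libraries.

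The tested genes whose log2(TPM + 1) over the 9 libraries was most like that of each ligand gene are given by Pearson's r, as a description in which the libraries fall into 3 types. For Cxcl12 they were Egr1 (0.9995), Txnip (0.9994) and AABR07049085.1 (0.9992). Cxcl13 was nearest Ddit4 (0.9966), Higd1a (0.9965) and Ptx3 (0.9963). For Cxcl16 the nearest were Card6 (0.9993), Lgi4 (0.9991) and Plxnd1 (0.9984). Cxcl1 was nearest Ackr4 (0.9908), Lin9 (0.9907) and AABR07008255.1 (0.9844), and Cxcl6 was nearest Cenpk (0.9927), RGD1310819 (0.989) and Pola1 (0.988). Cxcl14 was nearest Cdkn1b (0.9965), Col16a1 (0.996) and AABR07053650.1 (0.9959). For Cx3cl1 they were Fam13c (0.9742), Tspan5 (0.9709) and Scrn1 (0.9705). Of these, Ptx3, a soluble pattern recognition molecule, was at a mean of 691 TPM in Fb-Epn, 7.60 TPM in Fb-Par and 23.8 TPM in Fb-Skn, and Ackr4, an atypical chemokine receptor, at 25.5, 9.71 and 13.5 TPM.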
